A study of Homo sapiens with 12 samples.

Results

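The 35 genes described here encode the machinery that moves new proteins into the endoplasmic reticulum (ER), folds them there and sends misfolded ones for degradation. They were taken as a list of names, chosen with earlier results of these data known. Their shares beside those of all genes are therefore descriptions and not independent evidence. Every probe set annotated to exactly 1 of these genes was used. This gave 87 of the 54675 probe sets on the array and 33 of the 35 genes. No 1-gene probe set was used for SEC61G, a small subunit of the translocon, and the SYVN1 probe set was annotated to a second gene as well, so both are not analysed here. Brighter HSP90B1 probe sets annotated to a second gene were likewise not used. A probe set was tested when its log2 value was above 4 on at least 3 of the 12 arrays, which 82 of the 87 passed and 5 did not. Each of the 33 genes is represented by its brightest passing probe set. By the same rule 11154 genes were tested in all.

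HK-2 is an immortalized line of human renal proximal tubule epithelial cells. The 12 Affymetrix arrays form 4 groups of 3, which are CsA for 48 h, control for 48 h, CsA for 12 h and control for 12 h. CsA is read here as cyclosporin A, an immunosuppressant that binds cyclophilins and is toxic to the kidney. All cells were plated a day before exposure, grown close to confluence in a medium with EGF, hydrocortisone, insulin, transferrin and selenite, and controls received the vehicle. Neither the dose nor the vehicle is named in the sources used here. The comparisons ask what CsA does to gene expression in these cells at each time. The labels call the replicates biological, and the p-values measure the spread between these arrays.

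Proteins bound for secretion or for membranes enter the ER through the SEC61 channel, lose their signal peptide and are bound by chaperones such as HSPA5 (BiP) and by the lectins calnexin and calreticulin. Protein disulfide isomerases form and rearrange their disulfide bonds, and ERO1 oxidases recharge those enzymes. Chains that fail to fold are drawn back to the cytosol and degraded by the proteasome, with HERPUD1, SEL1L, the ubiquitin ligase SYVN1 and derlins at the membrane and EDEM proteins acting on their sugars. Unfolded protein in the ER activates the sensors ATF6, IRE1 and PERK, and ATF6 and XBP1 then raise transcription of many of these genes.

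The deposited values are log2 intensities, so a difference of 1 is a 2-fold change. Between 42.2% and 42.8% of probe sets lay above 4 on each array. Spread between replicates was wider at 48 h, with a median gene SD of 0.2 for CsA and 0.147 for control, than at 12 h, with 0.107 for CsA and 0.103 for control. For that reason each effect of CsA was fitted on the 6 arrays of its own time. The median spiked hybridization control was 7.375 on replicate 3 of the CsA arrays at 48 h, against 9.894 to 11.42 on the other arrays. Both replicate 1 arrays at 48 h had low labelling (poly-A) controls, 5.042 for CsA and 4.324 for control, against 8.38 to 10.18 elsewhere. Of 16 epithelial and tubule markers with a probe set, 9 were above 4 on all 12 arrays, among them KRT8, KRT18, PAX8 and CDH16. Another 7, including CDH1, LRP2, CUBN and AQP1, were above 4 on none, so the uptake receptors of the mature proximal tubule (LRP2 and CUBN) were not above background. The 5 endothelial and 4 leukocyte genes were above 4 on no array. Of 7 fibroblast and mesangial genes, COL1A1 and LUM were above 4 on all 12, PDGFRB on 11, DCN on 10, and COL1A2, COL3A1 and POSTN on none.

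Promoter windows from RefSeq (GRCh38.p14), reaching from 250 bases before to 50 bases after an annotated start, were matched for 31 of the 35 genes. They were searched on both strands for the ER stress response element (ERSE), which is CCAAT, then any 9 bases, then CCACG, the parts bound by NF-Y and by ATF6. It occurred in 27 of 35116 windows of the table (0.0769%), which belong to 25 of 27305 genes (0.0916%). Windows of 7 of the 31 genes held it (22.6%), namely HSPA5, HSP90B1, CRELD2, ERO1B, PDIA6, CANX and CALR. As ATF6 is known to raise many of the listed genes, this share describes the list and was not a test. The sequences below are the 5 genes of these 7 with the largest change under CsA at 12 h, shown so that the element can be read in place. Each runs 5′ to 3′ on the strand of its gene, and capitals mark the fixed letters of the element, or of its reverse complement, in which CGTGG comes before ATTGG. The HSPA5 stretch is chr9:125241366-125241434 (minus strand), CRELD2 chr22:49918529-49918597 (plus), ERO1B chr1:236282158-236282208 (minus) and PDIA6 chr2:10812828-10812896 (minus). HSP90B1 holds the element at 2 places, chr12:103930191-103930259 and chr12:103930296-103930364 (plus).
HSPA5: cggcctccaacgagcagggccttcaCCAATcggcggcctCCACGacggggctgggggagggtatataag
CRELD2: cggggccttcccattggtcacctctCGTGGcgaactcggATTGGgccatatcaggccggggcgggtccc
ERO1B: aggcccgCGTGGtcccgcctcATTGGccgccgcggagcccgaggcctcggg
HSP90B1, first place: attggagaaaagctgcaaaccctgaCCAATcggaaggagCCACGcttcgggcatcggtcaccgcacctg
HSP90B1, second place: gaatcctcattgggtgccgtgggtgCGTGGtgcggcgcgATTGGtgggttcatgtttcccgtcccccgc
PDIA6: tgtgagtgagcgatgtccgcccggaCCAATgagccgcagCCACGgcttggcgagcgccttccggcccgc

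The related ERSE-II, which is ATTGG, any 1 base and CCACG, and the shorter UPR element bound by XBP1 and ATF6, TGACGTGG, were searched after the values of the genes had been seen. ERSE-II was in 19 of 35116 windows (0.0541%), those of 0.0696% of the 27305 genes, and in those of SDF2L1, HERPUD1 and HYOU1, which are 9.68% of the 31 genes. The UPR element was in 256 windows (0.729%), those of 253 genes (0.927%), and in those of SSR3 and HYOU1 (6.45% of the 31 genes), and in HYOU1 it overlapped an ERSE-II. The 3 genes with ERSE-II are shown because they were among the 8 genes whose log2 change under CsA at 12 h was largest. The stretches are chr22:21642089-21642149 (plus) for SDF2L1, chr16:56932000-56932060 (plus) for HERPUD1 and, for the ERSE-II of HYOU1 nearer its start, chr11:119057249-119057309 (minus). Capitals mark ATTGG and CCACG or their reverse complements. A match describes the letters of the window and is not a measured binding site.
SDF2L1: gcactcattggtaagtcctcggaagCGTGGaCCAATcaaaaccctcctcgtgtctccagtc
HERPUD1: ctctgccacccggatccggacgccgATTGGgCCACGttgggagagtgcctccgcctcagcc
HYOU1: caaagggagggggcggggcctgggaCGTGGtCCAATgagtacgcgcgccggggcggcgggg

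After 12 h of CsA, log2 values of the chaperones and of several degradation factors lay above those of controls on every array, by up to 1.30. No gene passed the test. The difference was positive for 29 of 33 genes, against 47.1% of all genes tested, and its median was 0.24, against -0.0068 over all genes. An adjusted p (limma, Benjamini-Hochberg over all 11154 genes) under 0.05 was reached by 0 of the 33, and by 0 of 11154 genes (0.0%). At an unadjusted p under 0.05 there were 17 higher and 0 lower among the 33, where 4.26% of all genes were higher and 3.42% lower. All 3 CsA arrays were above all 3 control arrays for 20 genes, against 6.53% of all genes, and below them for 0, against 6.51%. A log2 change of at least 0.6 was reached by 8 of the 33 genes and by 53 genes in all (0.475%). These shares describe a list chosen with earlier results of these data known. In these bulk samples a change in RNA per cell and a change in the share of cells that carry it cannot be told apart.

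**Figure D1:**
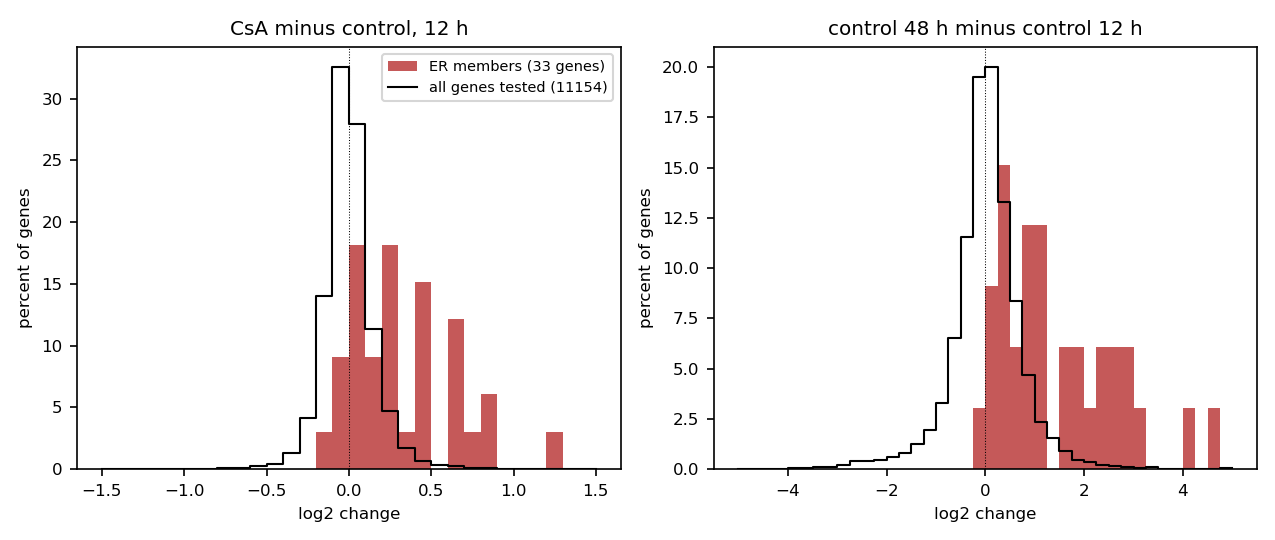
Distribution of log2 changes (horizontal axis) as a percentage of genes (vertical axis) for the 33 ER genes (red bars) and for all 11154 genes tested (black line), for CsA minus control at 12 h (left) and control at 48 h minus control at 12 h (right). The ER genes have medians of 0.24 and 1.12, where all genes have -0.0068 and 0.0277.

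The 7 chaperones and co-chaperones were higher on every CsA array at 12 h, with changes of 0.41 to 1.30 and a median of 0.62. SDF2L1, an ER protein that works with HSPA5 and its J-domain partners, had log2 values of 9.80, 9.39 and 10.65 with CsA, against 8.96, 8.33 and 8.67 in controls. All 3 CsA arrays were above the controls, and replicate 3 stood highest. Its change was 1.30 ± 0.33 (SE, n = 3 arrays per group, as for all changes here; adjusted p = 0.492), or 2.46-fold.

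DNAJB9, a J-domain co-chaperone of HSPA5 that represses IRE1, had 10.40, 10.17 and 10.49 with CsA, against 9.37, 9.56 and 9.58 in controls. Its 2 groups were separated by more than either group's range, and the change of 0.84 ± 0.11 had the smallest p among the genes described here (unadjusted 0.000156, adjusted 0.405). HSPA5, the major HSP70 chaperone of the ER, had 15.24, 14.91 and 15.40 with CsA, against 14.45, 14.18 and 14.59 in controls. The gap held on all arrays, a change of 0.78 ± 0.16 (adjusted p = 0.484), and its 3 same-numbered pairs of arrays differed by 0.79, 0.73 and 0.81. A second, dimmer HSPA5 probe set ranged over 8.16 to 9.44 with CsA and 7.16 to 7.96 in controls, a change of 1.22.

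HYOU1, a nucleotide exchange factor for HSPA5, had 11.16, 10.86 and 11.57 with CsA, against 10.67, 10.59 and 10.48 in controls. Its change was 0.62 ± 0.18 (adjusted p = 0.506), with the widest gap in replicate 3. DNAJB11, a J-domain co-chaperone that hands unfolded chains to HSPA5, had 13.02, 12.80 and 13.23 with CsA, against 12.60, 12.47 and 12.53 in controls, and the groups did not overlap (0.48 ± 0.12). HSP90B1 (GRP94), the HSP90 of the ER, had 13.17, 13.28 and 13.61 with CsA, against 12.99, 12.77 and 13.06 in controls. CsA was again above control throughout, by 0.41 ± 0.14. DNAJC3, a co-chaperone that also inhibits the kinase PERK, had 10.28, 10.11 and 10.05 with CsA, against 9.73, 9.82 and 9.67 in controls, a separated pair of groups differing by 0.41 ± 0.08.

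MANF and CRELD2, luminal proteins that can be secreted under ER stress, showed the same separation. MANF had 12.09, 11.90 and 12.66 with CsA at 12 h, against 11.44, 11.20 and 11.61 in controls (0.80 ± 0.21, adjusted p = 0.492). CRELD2 had 11.16, 10.83 and 11.70 with CsA, against 10.65, 10.38 and 10.75 in controls (0.64 ± 0.23, adjusted p = 0.589). In both, the lowest CsA array was above the highest control array, and replicate 3 was the highest CsA array.

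Among 9 degradation genes, 8 were measured, and 6 of these had every CsA array above every control array at 12 h. HERPUD1, a membrane protein that gathers the degradation complex, had 11.88, 11.52 and 11.99 with CsA, against 11.12, 11.14 and 11.26 in controls (0.62 ± 0.13, adjusted p = 0.484). EDEM1, which promotes trimming of mannose on misfolded glycoproteins, had 9.04, 9.24 and 9.40 with CsA, against 8.73, 8.72 and 8.77 in controls (0.49 ± 0.10, adjusted p = 0.484). The groups were apart for both genes. The others that did not overlap were DERL3 (0.36), SEL1L, the adaptor of SYVN1 (0.30), DERL2 (0.24) and SELENOS, a selenoprotein that recruits the ATPase VCP (0.23). Values overlapped for DERL1 (-0.03) and EDEM2 (-0.06). DERL3 lay at 3.98 to 4.77 on the 12 h arrays, near the level taken as background.

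Disulfide and translocation genes had median changes of 0.23 and 0.09 at 12 h. PDIA4, a protein disulfide isomerase, had 10.97, 10.86 and 11.29 with CsA, against 10.43, 10.28 and 10.49 in controls. The groups did not overlap, with a change of 0.64 ± 0.13 (adjusted p = 0.484). Its relative PDIA6 was also above controls on all arrays (0.29 ± 0.10). The isomerases PDIA3 (0.23) and P4HB (0.08), the oxidase ERO1A (0.18) and the prolyl isomerase FKBP14 (0.03) overlapped. The oxidase ERO1B had 4.71, 4.13 and 3.66 with CsA, against 4.05, 3.70 and 3.31 in controls, and lay under 4 on 1 CsA and 2 control arrays, so its change of 0.48 is uncertain. Of 7 translocation genes, the signal peptidase subunits SPCS2 (0.21) and SPCS3 (0.10) were above controls on every array, and the rest, SEC61A1, SEC61B, SEC63, SSR1 and SSR3, lay between -0.14 and 0.10. The lectin chaperones calnexin (CANX, 0.16) and calreticulin (CALR, 0.11) differed little, and only CANX did not overlap.

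**Figure D2:**
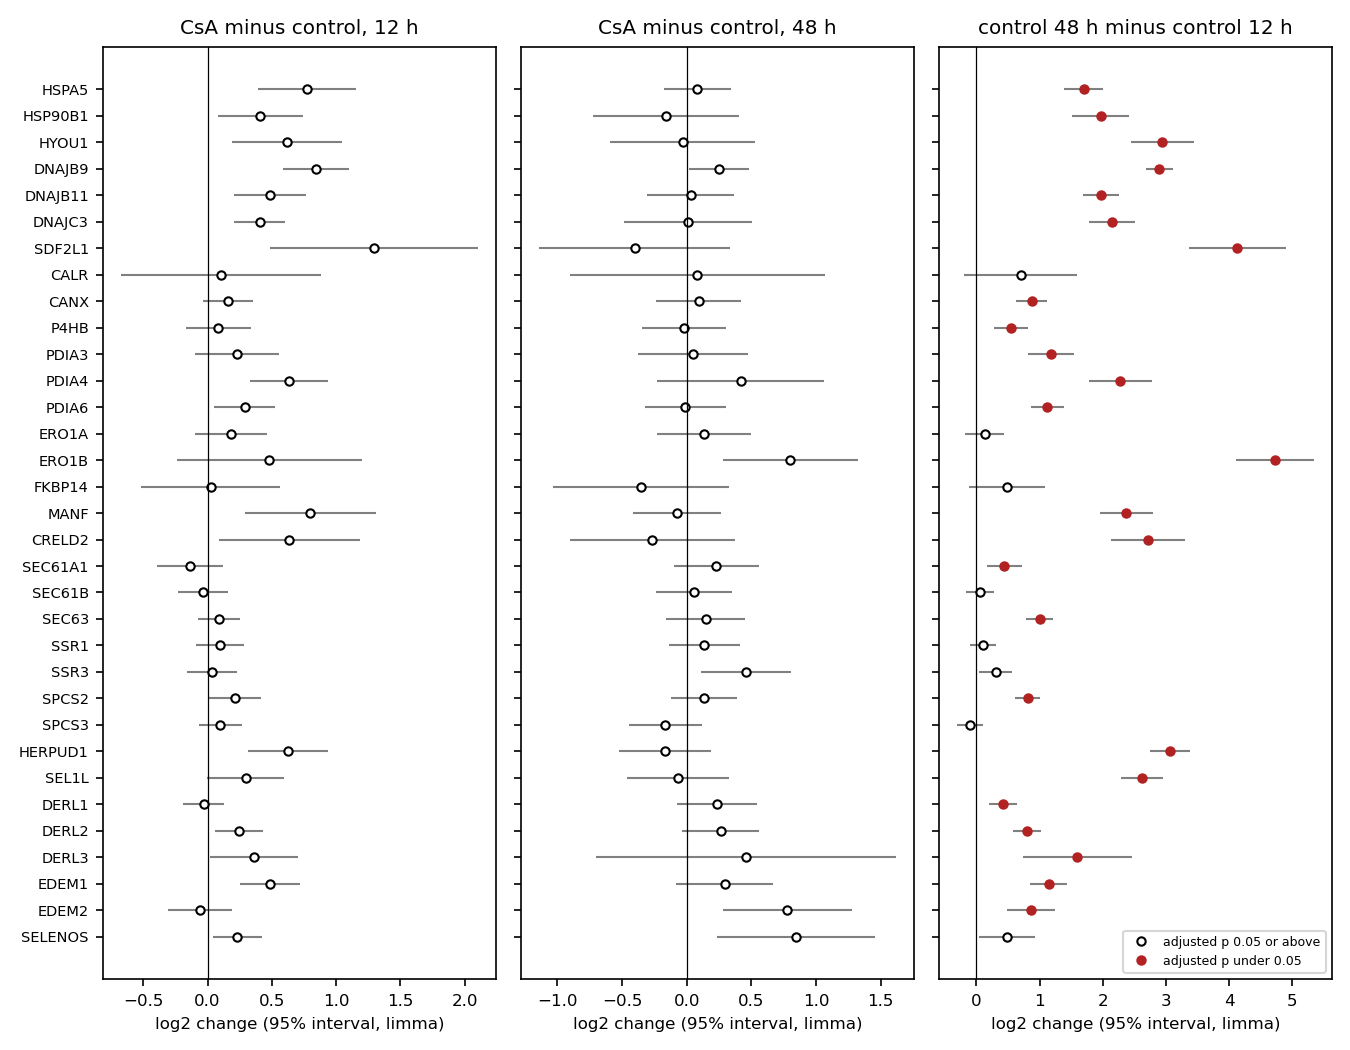
Log2 change (horizontal axes, points) with 95% intervals (lines, limma) of each of the 33 genes, ordered by role, for CsA minus control at 12 h, CsA minus control at 48 h and control at 48 h minus control at 12 h. Filled red points have an adjusted p under 0.05, which 0, 0 and 25 genes reached, and the scales of the panels differ.

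Arrays of the 12 h groups with the same replicate number deviated together, with correlations of 0.5498, 0.5774 and 0.4665 across all genes. CsA was above the same-numbered control in all 3 pairs for 24 of the 33 genes, against 18.8% of all genes. Among them PDIA3 (0.14, 0.33 and 0.22), ERO1A (0.26, 0.16 and 0.12) and ERO1B (0.66, 0.43 and 0.36) overlapped when the groups were compared without pairing. With the replicate number as a block, 0 of the 33 genes and 2 genes in all passed the test. With all 12 arrays in a single fit, DNAJB9 passed (adjusted p = 0.0464) as the only gene. Replicate 3 was the highest CsA array at 12 h for 27 of the 33 genes and replicate 2 the lowest for 21. Shares over all genes are not given for those array counts. The median change was 0.37 without CsA replicate 2, against 0.24 with it.

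After 48 h of CsA, values of 6 of the 7 chaperones overlapped with those of controls, and the largest positive differences lay in SELENOS, ERO1B and EDEM2. No gene among the 33 passed the test, where 1.1% of all genes did (123 of 11154, with 0.278% higher and 0.825% lower). The difference was positive for 22 of 33 genes (49.2% of all genes), with a median of 0.08 (all genes -0.005). CsA arrays were all above controls for 7 genes (13.9% of all genes) and all below for 0 (15.8%). At an unadjusted p under 0.05 there were 5 higher and 0 lower, where 8.98% and 12.9% of all genes were.

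SELENOS had 12.67, 12.22 and 13.18 with CsA at 48 h, against 11.96, 11.61 and 11.96 in controls. All CsA arrays were higher, with replicate 3 far above the others (0.85 ± 0.25, adjusted p = 0.132). ERO1B, well above background by then, had 8.96, 9.04 and 9.63 with CsA, against 8.66, 8.19 and 8.38 in controls (0.80 ± 0.22, adjusted p = 0.109). EDEM2, which starts mannose trimming of misfolded glycoproteins, had 10.05, 9.54 and 10.33 with CsA, against 9.11, 9.19 and 9.28 in controls. Those groups did not overlap either (0.78 ± 0.21, adjusted p = 0.107). SSR3, a subunit of the translocon-associated TRAP complex, had 14.16, 14.07 and 14.47 with CsA, against 13.72, 13.68 and 13.92 in controls, a change of 0.46 ± 0.14 (adjusted p = 0.144). Its dimmer passing probe sets changed by 0.07, 0.88 and -0.17. The remaining 3 genes without overlap were DNAJB9 (0.25), DERL2 (0.26) and SPCS2 (0.13).

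Among the chaperones, SDF2L1 had 12.77, 12.61 and 11.75 with CsA, against 12.79, 12.44 and 13.11 in controls (-0.40 ± 0.31, 95% interval -1.14 to 0.34). HSPA5 had 16.23, 16.24 and 16.08 with CsA, against 16.12, 16.00 and 16.19 in controls (0.08 ± 0.11, interval -0.18 to 0.34). That probe set lay close to the top of the scale, as the highest value of any probe set was 16.39 to 16.62 on those CsA arrays and 16.57 to 16.62 on those control arrays. The dimmer HSPA5 probe set changed by 0.31 and did not pass (adjusted p = 0.339). Replicate 3 was the lowest CsA array for SDF2L1 and for the brighter HSPA5 probe set. HYOU1 had 13.63, 13.72 and 13.13 with CsA, against 13.32, 13.33 and 13.93 in controls, a difference of -0.03 with an interval of -0.59 to 0.53. DNAJB9 had 12.69, 12.66 and 12.58 with CsA, against 12.33, 12.42 and 12.45 in controls, and was the only chaperone whose groups were apart.

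The groups also overlapped at 48 h in the other genes with the largest changes at 12 h. HERPUD1 had 14.30, 14.08 and 13.83 with CsA, against 14.24, 14.13 and 14.34 in controls (-0.17). MANF had 13.83, 13.80 and 13.51 with CsA, against 13.77, 13.64 and 13.97 in controls (-0.08). CRELD2 had 13.36, 13.11 and 12.67 with CsA, against 13.29, 12.91 and 13.74 in controls (-0.27). In each of these 3 genes CsA replicate 3 was below every control. PDIA4 had 12.99, 12.87 and 13.44 with CsA, against 12.51, 12.33 and 13.21 in controls (0.42), and there replicate 3 was the highest in both groups. A dimmer PDIA4 probe set changed by -0.43. EDEM1 had 10.16, 10.08 and 10.31 with CsA, against 9.86, 9.65 and 10.16 in controls (0.29).

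**Figure D3:**
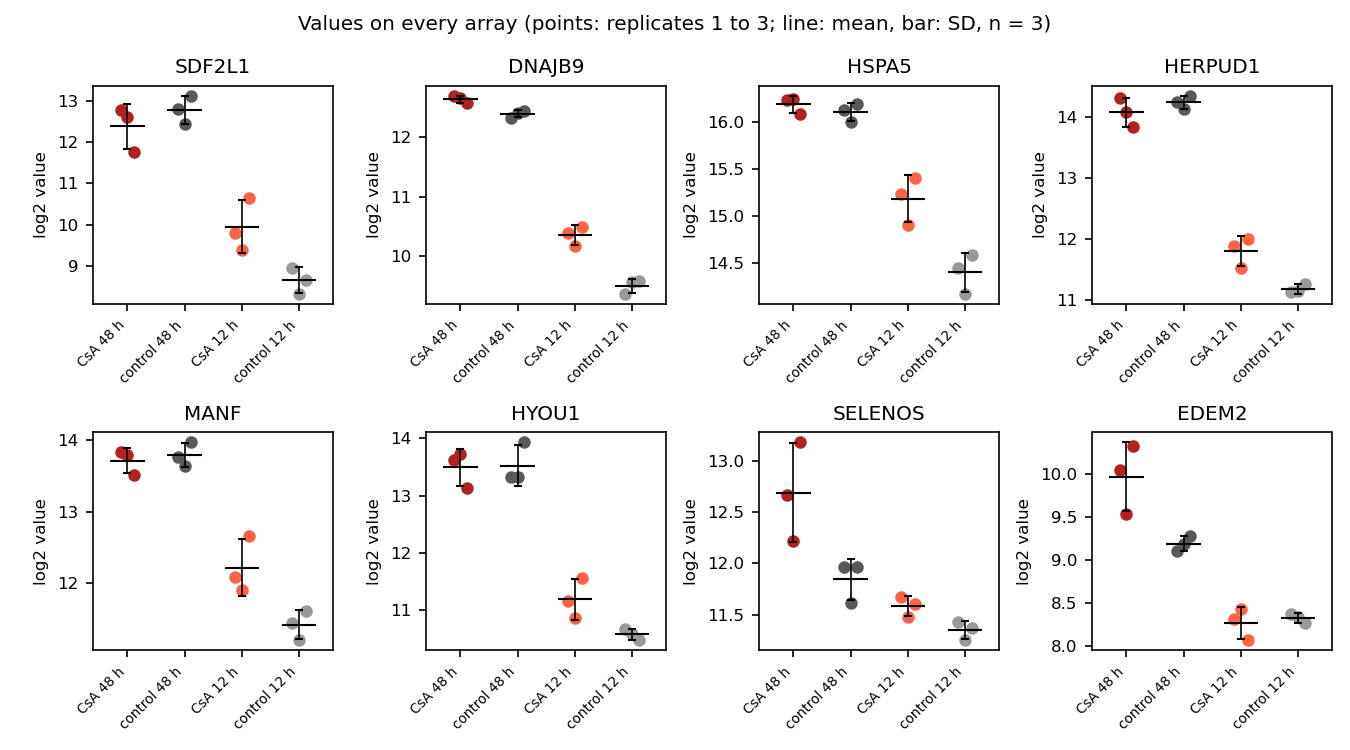
Log2 values of 8 genes (vertical axes) on every array (points, replicates 1 to 3 from left to right) in the 4 groups, with the mean (line) and SD (bar, n = 3). CsA at 12 h lies above control at 12 h in SDF2L1, DNAJB9, HSPA5, HERPUD1, MANF and HYOU1, and both 48 h groups lie above both 12 h groups in each of these 6 genes.

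At 48 h, CsA replicate 3, whose hybridization control was low, was the lowest CsA array for 21 of the 33 genes and the highest for 9. Without it, 26 of 33 differences were positive, the median was 0.16, and CsA was above control on all arrays for 11 genes. With fewer arrays such separation is easier for any gene, and shares over all genes are not given for these counts. Still 0 of the 33 passed, where 186 of 11154 genes did. SDF2L1 then differed by -0.09, HYOU1 by 0.15, HSP90B1 by 0.07, SELENOS by 0.60, EDEM2 by 0.60 and ERO1B by 0.59. The part of that array's hybridization in these values was not tested. Without both replicate 1 arrays 17 differences were positive, the median was 0.07 and 0 passed, as did 0 of all 11154 genes.

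The effect of CsA at 48 h minus its effect at 12 h was negative for all 7 chaperones, with a median of -0.60. It was positive for 11 of the 33 genes, against 48.9% of all genes. None of the 33 genes passed the test of this difference, against 1.12% of all genes (0.224% higher, 0.897% lower). At an unadjusted p under 0.05, 7 genes were lower and 2 higher, where 10.4% and 7.02% of all genes were. Each effect has its own controls, so this difference rests on all 12 arrays. SDF2L1 differed most, by -1.70 ± 0.49 (adjusted p = 0.122), followed by CRELD2 (-0.90, adjusted p = 0.247), MANF (-0.88, 0.136), HERPUD1 (-0.79, 0.090) and HSPA5 (-0.69, 0.114). DNAJB9 had the smallest p (-0.60 ± 0.14, adjusted p = 0.0717). In the other direction stood EDEM2 (0.84 ± 0.24, adjusted p = 0.126) and SELENOS (0.62, 0.295). Without CsA replicate 3 at 48 h, the median difference over the 33 genes was -0.06, against -0.18 with it. SDF2L1 then differed by -1.385, CRELD2 by -0.713, HSPA5 by -0.64 and EDEM2 by 0.655. Of the 33 genes 0 passed, where 442 of 11154 genes did. When arrays were blocked by number inside each time, HSPA5 passed (adjusted p = 0.043), though same-numbered 48 h arrays did not all deviate together. This HSPA5 probe set lay close to the top of the scale at 48 h, and the part of that limit in its difference was not tested. The dimmer HSPA5 probe set differed by -0.91 without the block (adjusted p = 0.326). FKBP14, which helps fold procollagen, had 9.08, 8.81 and 9.93 with CsA at 48 h against 9.72, 9.56 and 9.61 in controls, and 8.85, 9.15 and 9.50 with CsA at 12 h against 8.76, 9.24 and 9.42 in controls. Its difference of effects was -0.38, and its groups overlapped at both times. HSP90B1 differed by -0.57, DNAJC3 by -0.40 and SEL1L by -0.37.

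The largest changes in these genes lay between the times. In controls, 25 of 33 genes rose at 48 h relative to 12 h and 0 fell, while 24.6% of all genes rose and 20.9% fell. The median change was 1.12, against 0.0277 over all genes. The change was positive for 32 of 33 genes (52.7% of all genes). All 48 h controls were above all 12 h controls for 28 genes (31.8% of all genes) and below for 1, SPCS3 (28.4%). A change of at least 2, a 4-fold rise, was found in 10 of the 33 genes and in 125 genes in all (1.12%), and one of at least 1 in 18 of the 33 and 6.37% of all genes. Hours of culture and anything else that differed between the 12 h and 48 h controls cannot be told apart. These changes share the 12 h controls with the effect of CsA at 12 h and the 48 h controls with the effect at 48 h.

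All 7 chaperones rose, by 1.70 to 4.13. SDF2L1 had 12.79, 12.44 and 13.11 in 48 h controls, against 8.96, 8.33 and 8.67 in 12 h controls, a change of 4.13 ± 0.35 (17.5-fold, adjusted p = 1.05e-05). DNAJB9 had 12.33, 12.42 and 12.45 at 48 h, against 9.37, 9.56 and 9.58 at 12 h, and its rise of 2.89 ± 0.10 (7.44-fold) had an adjusted p of 9.44e-08. No array of one time came near the other in these genes. HYOU1 rose by 2.94 ± 0.22, to values of 13.32, 13.33 and 13.93. HSP90B1 had 14.75, 14.77 and 15.20 at 48 h, against 12.99, 12.77 and 13.06 at 12 h (1.97), DNAJB11 had 14.52, 14.31 and 14.69, against 12.60, 12.47 and 12.53 (1.97), and DNAJC3 had 12.20, 11.57 and 11.89, against 9.73, 9.82 and 9.67 (2.14).

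HSPA5 rose by 1.70 ± 0.14 (3.24-fold) on its brighter probe set, with 16.12, 16.00 and 16.19 in 48 h controls, against 14.45, 14.18 and 14.59 in 12 h controls. The highest value of any probe set on those 48 h arrays was 16.57 to 16.62, so this probe set lay close to the top of the scale. Its dimmer probe set had 11.77 to 12.27 at 48 h, against 7.16 to 7.96 at 12 h, and rose by 4.43. Whether the top of the scale narrowed the first of these changes was not tested.

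Secreted and degradation genes rose with time as well. MANF had 13.77, 13.64 and 13.97 in 48 h controls, against 11.44, 11.20 and 11.61 in 12 h controls (2.37, or 5.19-fold). CRELD2 rose by 2.72 (6.59-fold). HERPUD1 had 14.24, 14.13 and 14.34 at 48 h, against 11.12, 11.14 and 11.26 at 12 h, a rise of 3.06 ± 0.14 (8.37-fold, adjusted p = 5.06e-07). SEL1L had 12.64, 12.65 and 13.14, against 10.08, 10.28 and 10.22 (2.61), with similar rises on its other passing probe sets of 2.35 and 2.78. The other degradation genes that rose were DERL3 (1.60), EDEM1 (1.15), EDEM2 (0.86), DERL2 (0.80) and DERL1 (0.43), so 7 of 8 passed. DERL3 had 4.15, 3.98 and 4.36 in 12 h controls, near background, so the size of its rise is uncertain. Dimmer passing probe sets of DERL1 changed by -0.08 (adjusted p = 0.696) and 0.40 (adjusted p = 0.0146). SELENOS had 11.96, 11.61 and 11.96 at 48 h, against 11.43, 11.25 and 11.37 at 12 h, and its change of 0.49 missed the threshold (adjusted p = 0.068).

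Disulfide genes split. ERO1B had 8.66, 8.19 and 8.38 in 48 h controls, against 4.05, 3.70 and 3.31 in 12 h controls, the largest change of the 33 (4.72 ± 0.28). With 2 of the 12 h arrays under 4, near background, that size is uncertain. PDIA4 had 12.51, 12.33 and 13.21, against 10.43, 10.28 and 10.49, and rose by 2.28 ± 0.22 (4.85-fold). PDIA3 (1.18), PDIA6 (1.12) and P4HB (0.55) rose by less. The paralog of ERO1B, ERO1A, a gene also known to respond to hypoxia, had a change of 0.13 (95% interval -0.18 to 0.44, adjusted p = 0.475) on its brightest probe set, while a dimmer one rose by 0.50 (adjusted p = 0.0196). FKBP14 (0.49, adjusted p = 0.175) did not pass on its brightest probe set, while 2 dimmer ones rose by 0.88 and 1.38. With all probe sets of a gene averaged, ERO1A rose by 0.33 (adjusted p = 0.0256) and FKBP14 by 0.91 (adjusted p = 0.00882).

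Median changes in controls over time were 0.79 for the lectin chaperones and 0.31 for translocation genes. CANX rose by 0.88 ± 0.11, and CALR had a change of 0.70 ± 0.40 that did not pass, with 11.73, 12.44 and 13.29 in 48 h controls against 11.80, 11.39 and 12.17 in 12 h controls. The CALR arrays overlapped, with replicate 3 highest at both times. On dimmer CALR probe sets the change was 0.07 and 1.72, and the one with 1.72 passed (adjusted p = 0.00841). Of 7 translocation genes 3 rose, SEC63, a J-domain partner of the channel (1.00 ± 0.10), SPCS2 (0.81) and SEC61A1, the channel's core (0.44). SSR3 (0.31, adjusted p = 0.0526), SSR1 (0.10), SEC61B (0.06) and SPCS3 (-0.10) did not pass on their brightest probe sets. Dimmer SSR1 probe sets changed by 0.75, 0.52, -0.10, -0.11 and -0.15, and only the one with 0.75 passed (adjusted p = 0.000281). Dimmer SSR3 probe sets changed by 0.47, 0.39 and -0.21, and only the one with 0.47 passed (adjusted p = 0.0236). A second SPCS3 probe set fell by 0.50, the only one of the 82 that fell. With probe sets averaged, SPCS3 fell by 0.34 (adjusted p = 0.021), and the changes of SEC61A1 (0.40, adjusted p = 0.0755) and of the degradation gene DERL1 (0.25, adjusted p = 0.0628) did not pass.

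**Figure D4:**
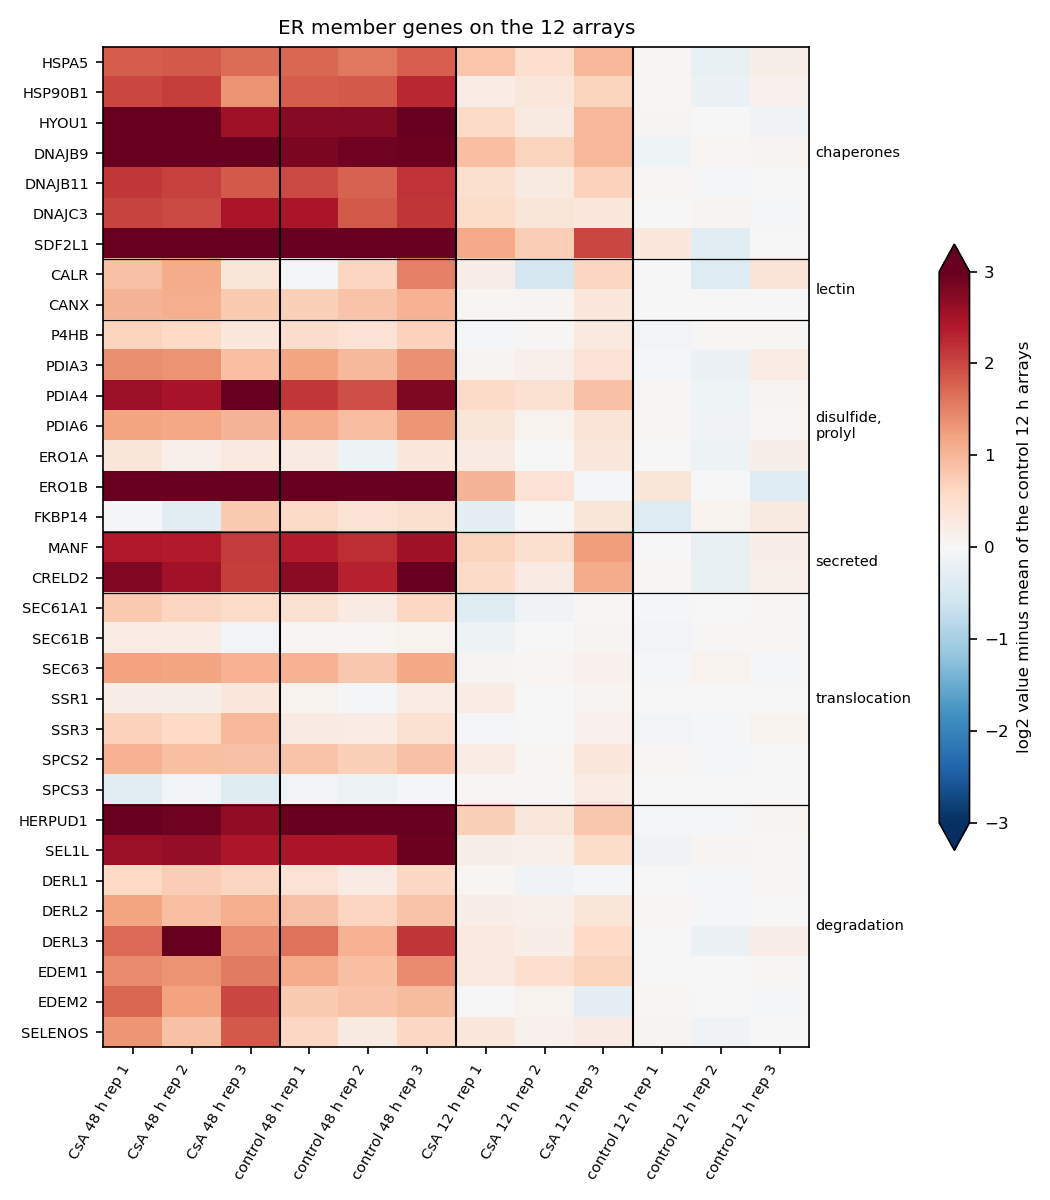
Log2 value minus the mean of the 3 control arrays at 12 h (colour, limited to between -3 and 3) for 33 genes (rows, by role) on the 12 arrays (columns, by group). The 48 h columns are red for most genes with or without CsA, and the CsA 12 h columns are paler red in the chaperones, MANF, CRELD2, PDIA4 and HERPUD1.

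Most of these genes also rose with time under CsA, on arrays that share none with the controls. Both changes over time used a spread estimated from all 12 arrays, and same-numbered CsA and control arrays deviated together at 12 h. They are therefore not independent. At 48 h relative to 12 h, 27 of 33 genes rose with CsA and 1 fell, SPCS3 (-0.37, adjusted p = 0.00611; -0.26 and 0.0515 with its probe sets averaged), where 27.8% of all genes rose and 25.8% fell, and the median was 1.00. Values were 2.43 for SDF2L1, 2.30 for DNAJB9, 2.27 for HERPUD1 and 1.00 for HSPA5 on its brighter probe set, which lay close to the top of the scale at 48 h. The dimmer HSPA5 probe set rose by 3.52. EDEM2 (1.70), SELENOS (1.11) and SSR3 (0.73) also rose. Dimmer SSR3 probe sets changed by 0.60, 1.31 and -0.43, and all of these passed (adjusted p = 0.00522, 0.00979 and 0.0151), so the last of them fell. Per array, the median of the 33 genes relative to the 12 h control means was 1.39, 1.21 and 1.35 with CsA at 48 h and 1.12, 0.91 and 1.38 in controls at 48 h. At 12 h it was 0.23, 0.15 and 0.37 with CsA and 0.01, -0.03 and 0.04 in controls.

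Of the 82 probe sets that passed the filter, fitted with all 20631 such probe sets, 60 were higher and 1 lower in 48 h than in 12 h controls (20.5% and 18.0% of all probe sets). With CsA 63 were higher and 2 lower (23.5% and 23.9%). In the comparisons of CsA with control, 0 passed at 12 h (0.0% of all probe sets higher) and 0 at 48 h (0.0% higher, 0.0388% lower). For the difference of effects 0 passed, too (0.0436% higher, 0.276% lower). Of 24 genes with several passing probe sets, 7 had changes of mixed sign under CsA at 12 h and 16 at 48 h, but 3 in controls over time. Probe sets of a gene share its RNA and are not replicates. HSP90B1, CALR and SPCS3 are each represented by a probe set of the x type, whose probes can also match other transcripts.

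The 7 genes whose window held ERSE had a median change of 0.41 (0.11 to 0.78) under CsA at 12 h, and the 22 measured genes with a window without it had 0.24 (-0.14 to 1.30). In controls over time the medians were 1.70 (0.70 to 4.72) with ERSE and 0.93 (-0.10 to 4.13) without it. The ranges overlap, no test was made, both contrasts share the 12 h controls, and SDF2L1, HERPUD1, HYOU1, DNAJB9, SEL1L and DNAJC3 are among the genes without ERSE. With CsA over time the medians were 1.00 with ERSE and 1.08 without it. At 48 h the medians under CsA were 0.08 with ERSE and 0.13 without it. SDF2L1, HERPUD1 and HYOU1 held ERSE-II, which was searched after the values were seen. The 10 genes with ERSE or ERSE-II had medians of 0.55 under CsA at 12 h and -0.02 at 48 h. The 19 with neither had 0.21 and 0.14. Over time the medians were 2.34 against 0.81 in controls and 1.61 against 0.96 with CsA. These ranges overlap too, and no test was made.

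Among 84 further genes of ER folding, glycosylation, translocation and degradation, 77 were measured. Under CsA at 12 h, 38 had a positive and 39 a negative change, with a median of -0.00, and 0 passed. The smallest p belonged to ERP44, which retains ERO1 oxidases in the ER (0.28, adjusted p = 0.584), PPIB, the ER cyclophilin (0.24, 0.588), and OSTC, a subunit of the oligosaccharyltransferase that adds sugar chains (0.19, 0.611). At 48 h 0 passed, 42 had a positive and 35 a negative change, and the median was 0.04. The smallest p belonged to FKBP9, FKBP7 and FKBP10. FKBP9 averaged 9.56 with CsA and 10.07 in controls (-0.52, adjusted p = 0.0659), FKBP7 averaged 7.44 with CsA and 9.43 in controls (-1.98, 0.0684), and FKBP10 averaged 3.89 with CsA and 5.18 in controls (-1.29, 0.095). For all 3 the CsA arrays were below every control array, as they were for 15.8% of all genes. FKBP10 lay near the level taken as background. Of the 7 measured genes on the list of ER prolyl isomerases, 3 had a positive and 4 a negative change, with a median of -0.09. PPIB was above every control array (0.33), and FKBP11 had a change of 0.37 with overlap. Some fibroblast and mesangial genes were also lower under CsA at 48 h. LUM averaged 7.18 with CsA and 8.86 in controls, COL1A1 9.06 with CsA and 10.01 in controls, and DCN 3.68 with CsA and 4.53 in controls, while PDGFRB averaged 5.14 with CsA and 4.93 in controls. The summed log2 level of all 7 genes of that list was 32.0 to 36.9 with CsA and 36.1 to 38.3 in controls at 48 h. Tubule markers were lower as well, with SLC4A4 averaging 9.24 with CsA and 10.99 in controls. CDH6 averaged 11.89 and 13.05, PDZK1 10.80 and 11.82, and CDH16 6.39 and 7.34. PAX8 (11.90 and 10.81) and KRT19 (10.76 and 9.97) were higher with CsA. The summed level of the epithelial and tubule list was 122 to 123 with CsA and 124 to 126 in controls. The part of either list in these changes was not tested.

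The test of the difference of effects was passed by 0 of the 77 genes, with the smallest p in FKBP9 (-0.53, adjusted p = 0.0929), FKBP7 (-1.86, 0.0956) and the thioredoxin-domain protein TXNDC16 (-1.23, 0.130). In controls over time 34 of 77 rose and 5 fell, where 24.6% of all genes rose and 20.9% fell, and the median was 0.22. The 5 that fell, named after their values were seen, were OST4, ERLIN1 and VCP with its cofactors UFD1 and NPLOC4, the last 3 forming the complex that pulls proteins from the ER membrane. VCP fell by 0.70, UFD1 by 0.65 and NPLOC4 by 0.43. The largest rises, likewise named after their values were seen, were in SEC11C, a catalytic subunit of the signal peptidase (1.49), FKBP7 (1.41) and ERP44 (1.33). With CsA over time 42 rose and 10 fell, where 27.8% of all genes rose and 25.8% fell.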

How the data were processed

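The authors deposited log2 probe set values made with GCRMA, per the submitters' processing notes, with version and settings not given in the sources used here. GCRMA corrects background by probe sequence and compresses dim probe sets, so changes near a log2 value of 4 are uncertain. No further normalization was applied. The platform annotation gave 1 symbol for 41097 of 54675 probe sets, and 0 of 66 pairs of arrays were identical.

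Changes were tested with limma 3.58.1 (R 4.3.3; lmFit, eBayes, Benjamini-Hochberg over all genes tested, threshold 0.05). Effects of CsA came from each time's 6 arrays (4 residual degrees of freedom), and the others from a 4-group fit of 12 arrays (8). The fits were tested on simulated data in which few genes changed. There the 4-group fit made more false calls than its threshold states, so its calls are taken as less firm than their adjusted p. Far more genes were called over time (45.5% in controls and 53.5% with CsA), and no simulation was run with so many changed. The number of arrays limits precision. Same-numbered arrays deviated together at 12 h and between control times (0.2912, 0.2781 and 0.3254), but not all did at 48 h (0.0963, 0.3 and -0.05061). This pairing comes from the data, as the labels give only replicate numbers.

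Members and lists were chosen with earlier results of these data known. Every-array values are given for members with the 10 largest absolute changes at 12 h and the next 4 at 48 h. They are also given for the next 4 differences of effects. In each case the higher group averaged at least 6, and not all 4 groups are shown for every gene. Other pathway genes are named where they passed a CsA contrast or had its 3 smallest p, and those named for a change over time were chosen after their values were seen. Alternatives were other filters, probe set rules, scalings, spread estimates, blocks and omitted arrays. Protein sequences were not used here.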

Additional observations from a re-analysis of the deposited data

How the results depend on the processing

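With 3 arrays a group, calls depended on how spread was estimated. With a 4-group fit of all 12 arrays, 1 of the 33 genes passed for CsA at 12 h (DNAJB9) and 3 at 48 h (EDEM2, SELENOS, SSR3), and genes called at 48 h numbered 1795 against 123. Array weights gave 6 of the 33 at 48 h and 2018 genes in all. For the difference of effects, array weights gave 2 (of 1199 genes in all, against 125), a trended robust prior 1, and the replicate block within each time 1 (of 370 genes).

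With the replicate block as pairing, 0 of the 33 passed at 12 h and 0 at 48 h (24 genes in all), 27 in controls over time (SELENOS and SSR3 joined), where 25.9% of all genes rose and 21.8% fell, and 28 with CsA over time, where 28.8% rose and 26.7% fell; it changed no other call of the 33. At 48 h the count over all genes was also 6 with no filter, 224 with a filter at 6, 200 after centring, 169 after repeated quantile normalization, 310 with a trended robust prior and 2 with all probe sets tested. The difference gave 49 genes with no filter, 44 with all probe sets and 192 with the trended robust prior.

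Leaving out arrays moved the 12 h median between 0.18 and 0.37 and the number of genes with CsA all above control at 48 h between 7 and 13 (11 without CsA replicate 3, 13 without control replicate 3). Fewer arrays make such separation easier for any gene, and shares over all genes are not given for it. Omitted arrays moved the count for the difference of effects between 0 and 1 (EDEM2, without CsA 48 h replicate 2, of 325 genes in all). For controls over time it moved between 24 and 27. It was 24 without control 48 h replicate 3, where 22.1% of all genes rose and 17.6% fell. It was 27 without CsA 48 h replicate 2 (24.9% and 21.3%) and without CsA 48 h replicate 3 (28.4% and 24.7%). Averaging all probe sets of a gene gave a median of 1.20 with CsA over time, against 1.00. It gave 26 calls in controls over time (ERO1A, FKBP14 and SPCS3 joined, the last of them lower, and DERL1 and SEC61A1 were lost). There 23.5% of all genes rose and 21.6% fell. With CsA it gave 28 calls (SSR1 joined, SPCS3 was lost), where 26.5% of all genes rose and 26.4% fell. Fits of only the arrays compared gave 27 in controls, where 25.2% of all genes rose and 22.2% fell. With CsA they gave 28, where 23.6% rose and 22.2% fell. No called change of the 33 genes turned its sign. Uncalled changes turned sign in 11 of 428 values at 12 h, 36 of 461 at 48 h, and 30 of 626 for the difference of effects. Causes were not tested. Alternatives for medians and array counts over time were added after seeing the data.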
